A study of Homo sapiens with 6 samples.

Results

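The histone cluster genes are the protein-coding genes whose symbols start with HIST1H, HIST2H, HIST3H or HIST4H. They were chosen by symbol and biotype alone, and 71 of the 58735 genes in the expression table met that rule. Their messenger RNA was compared between 3 wild-type (WT) libraries and 3 knockout (KO) libraries of the established human fibrosarcoma line HT1080. The KO cells had been edited with CRISPR-Cas9 at GPR56, a receptor gene of the adhesion class that the expression table lists as ADGRG1. Both genotypes carry the solvent name DMSO in their descriptions, with no dose or time. The sources do not say how many knockout clones were sampled or whether the 3 libraries of a genotype came from separate cultures. The p-values therefore measure the spread between these libraries, which may be technical, and genotype cannot be told apart from the cell population sampled.

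Core histones H2A, H2B, H3 and H4 form the protein spool of the nucleosome, and the linker histone H1 binds where DNA enters and leaves it. The cluster genes are for the most part replication-dependent copies, which cells transcribe mainly in S phase, when new DNA has to be packaged. Most have no introns, and their mRNAs characteristically end in a conserved stem-loop instead of a poly(A) tail. The stem-loop is bound by SLBP, which supports processing, translation and stability of the message, and the U7 small nuclear ribonucleoprotein takes part in the cleavage behind it. Some cluster genes also give polyadenylated messages. The labels name a SMARTER mRNA-Seq kit, and how far it captured messages without a tail was not tested.

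The stem-loop was present in the annotated models of 32 of the 71 members, against 26 of 19851 other protein-coding genes (0.131%), in GENCODE release 29 transcripts. It is shown for the 8 members with a match that were expressed highly enough to be tested, since their models reach the end that marks this gene class. The 16 bases of the stem-loop are in capitals, with 5 bases on each side, 5′ to 3′ in DNA letters.
HIST1H2AC: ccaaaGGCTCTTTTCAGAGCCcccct
HIST3H2A: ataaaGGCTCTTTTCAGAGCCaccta
HIST1H2AG: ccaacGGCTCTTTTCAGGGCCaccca
HIST1H2BC: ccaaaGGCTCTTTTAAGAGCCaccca
HIST1H2BD: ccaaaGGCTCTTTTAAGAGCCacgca
HIST2H2BE: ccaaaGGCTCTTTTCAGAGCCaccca
HIST1H3H: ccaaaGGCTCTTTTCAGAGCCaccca
HIST1H4I: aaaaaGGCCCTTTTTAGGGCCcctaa
The form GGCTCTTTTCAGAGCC was carried by 17 members, 4 of them tested (HIST1H2AC, HIST3H2A, HIST2H2BE and HIST1H3H). HIST1H2BC and HIST1H2BD shared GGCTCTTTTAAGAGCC with 3 further members, and HIST1H4I had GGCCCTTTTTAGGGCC with 2 others. The gene models differed in what they cover. Coding sequence alone made up 33 models, none with a stem-loop; 17 models were under 1000 bases with some untranslated sequence, 11 of them with it, and 21 models of 1000 bases or more all had it.

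Cluster genes often lie head to head, an H2A gene and an H2B gene reading away from a shared start region. In all, 12 such pairs had RefSeq starts within 1000 bases of each other, as did 2 pairs of an H3 and an H2B gene; in 3 pairs, each of an H2A and an H2B gene, both genes were tested. The sequence between those starts is printed because the partners did not always change alike. Each is the plus strand of GRCh38, 5′ to 3′, with the H2B gene reading to the left and the H2A gene to the right. Capitals mark matches on either strand to 3 promoter elements. The first is TATAAA, the element that positions transcription initiation. The second is CCAAT, the element bound by factor NF-Y. The third is ATTTGCAT, the octamer bound by OCT1. They are called the TATA box, the CCAAT box and the octamer.
HIST2H2BE and HIST2H2AC, chr1:149886683-149886917: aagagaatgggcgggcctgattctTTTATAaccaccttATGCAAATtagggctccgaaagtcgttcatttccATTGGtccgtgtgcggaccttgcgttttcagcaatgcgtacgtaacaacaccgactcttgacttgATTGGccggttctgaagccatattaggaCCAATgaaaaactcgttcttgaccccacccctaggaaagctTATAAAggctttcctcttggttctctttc
HIST1H2BC and HIST1H2AC, chr6:26123927-26124171: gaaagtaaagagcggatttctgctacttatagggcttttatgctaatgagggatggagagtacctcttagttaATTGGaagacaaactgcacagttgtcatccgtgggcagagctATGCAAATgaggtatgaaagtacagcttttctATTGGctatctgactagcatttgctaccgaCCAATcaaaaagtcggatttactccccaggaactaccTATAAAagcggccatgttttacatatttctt
HIST1H2BJ and HIST1H2AG, chr6:27132796-27133042: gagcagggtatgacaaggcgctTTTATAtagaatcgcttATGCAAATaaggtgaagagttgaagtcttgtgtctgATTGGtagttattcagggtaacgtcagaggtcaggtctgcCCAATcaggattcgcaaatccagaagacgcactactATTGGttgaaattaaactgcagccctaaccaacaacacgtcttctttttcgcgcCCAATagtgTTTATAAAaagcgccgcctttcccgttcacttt
Each of the 3 regions held 1 octamer. The region of HIST2H2BE and HIST2H2AC held 2 TATA and 3 CCAAT matches, that of HIST1H2BC and HIST1H2AC 1 and 3, and that of HIST1H2BJ and HIST1H2AG 3 and 4. In the last region a pair of TATA matches on opposite strands overlap. In the 250 bases upstream of RefSeq starts (GRCh38.p14), available for 66 of the 71 members, the octamer lay in 25 (37.9%), against 1.56% of 35046 other promoters. It was found upstream of 14 of 18 H2B and 11 of 16 H2A genes and of no H1, H3 or H4 gene. A TATA box lay in 44 of 66 (66.7%, other promoters 10.6%) and a CCAAT box in 56 of 66 (84.8%, other promoters 31.9%); only 3 of 13 H4 promoters had a CCAAT box. These matches describe the letters in the window and not bound sites.

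**Figure D1:**
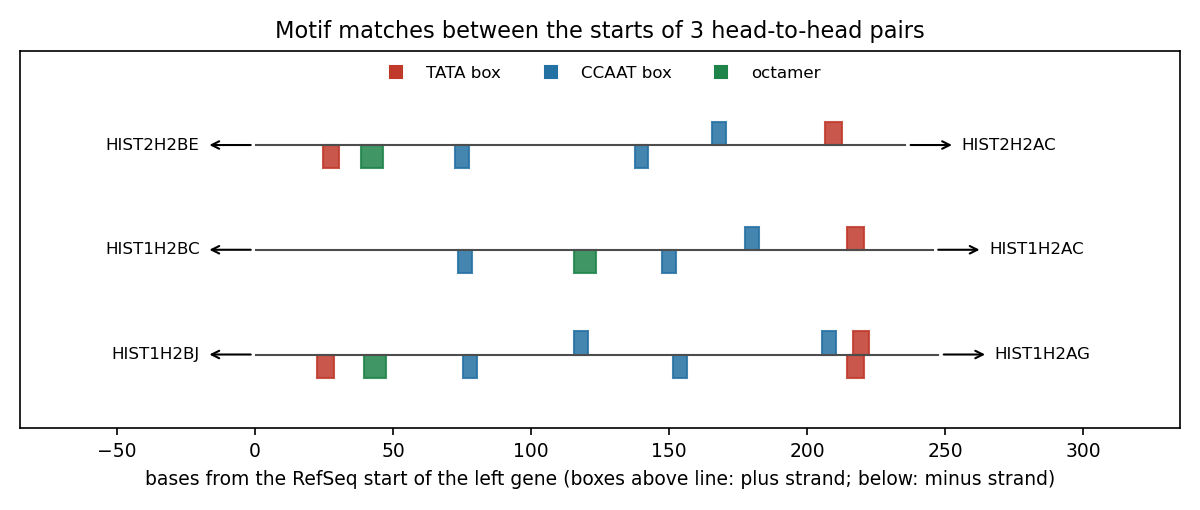
Matches to the TATA box, the CCAAT box and the octamer (boxes by colour, above the line on the plus strand and below it on the minus strand) between the starts of the 3 head-to-head pairs with both genes tested, in bases from the RefSeq start of the left gene. Each region holds 1 octamer, on the minus strand, and the region of HIST1H2BJ and HIST1H2AG holds the most CCAAT matches, 4.

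Expression was deposited as FPKM, fragments scaled to the length of the gene model and to a scale for each library, close to sequencing depth. The values stepped in whole reads, so read numbers could be recovered: 16410352 to 16461752 per WT library and 16955111 to 17276269 per KO library. A gene was tested where its mean over the 6 libraries was at least 1 FPKM, with limma on log2(FPKM + 1), and it is called changed at a Benjamini-Hochberg adjusted p under 0.05 over 12000 genes. Fold changes are KO minus WT on that log2 scale, which understates changes of low genes. ADGRG1 itself read 6.61, 6.07 and 6.87 FPKM in WT and 2.68, 2.54 and 2.58 FPKM in KO, a change of −1.06 (SE 0.07, limma adjusted p = 6.24e-05). Its RNA was reduced in every KO library and still present. GC content separated the libraries in part. Across genes, deviation from the gene mean correlated with GC at a Spearman rho of −0.62 to −0.01 in WT libraries and 0.23 to 0.46 in KO libraries, so this trend and genotype cannot be told apart. Summed mesenchymal markers were 1303 to 1334 FPKM in WT and 1557 to 1655 FPKM in KO, and 0 of 5 were at zero. The markers did not move alike. LGALS1 (mean 739 FPKM in WT, 912 in KO), SPARC (183 and 278) and FN1 (54.8 and 80.8) were called higher. VIM (311 and 287) and CDH2 (34.7 and 38.4) were not called. Summed epithelial markers were 33.6 to 37.8 and 55.3 to 56.6 FPKM, nearly all from KRT8, with CDH1 at 0. Leukocyte markers summed to at most 0.406 FPKM and hepatocyte markers to at most 0.253 FPKM in any library, with PTPRC and ALB at 0. The part of GC content and of these markers in the histone results was not tested further than by refitting with a GC and gene length correction, under which each of the 5 member calls given next held.

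Only 13 of the 71 members reached the filter, and they held 13873 of the 14668 reads on members (94.6%). Of the 13, 4 fell in KO (HIST1H1C, HIST1H2AC, HIST1H2BC and HIST1H4I), 1 rose (HIST2H2AC) and 8 were not called, so 38.5% were called against 43.4% of all genes tested. Among all genes 21% were called higher and 22.4% lower. The share of histone genes called was therefore near the background. The median change of the 13 was −0.16, beside −0.01 over all genes tested. The KO and WT values did not overlap for 7 of the 13, against 54.7% of all genes. After correction for GC content and gene length, HIST3H2A and HIST1H2BD were also called lower, giving 1 higher and 6 lower (53.8%, all genes 43.6%) and a median of −0.24.

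**Figure D2:**
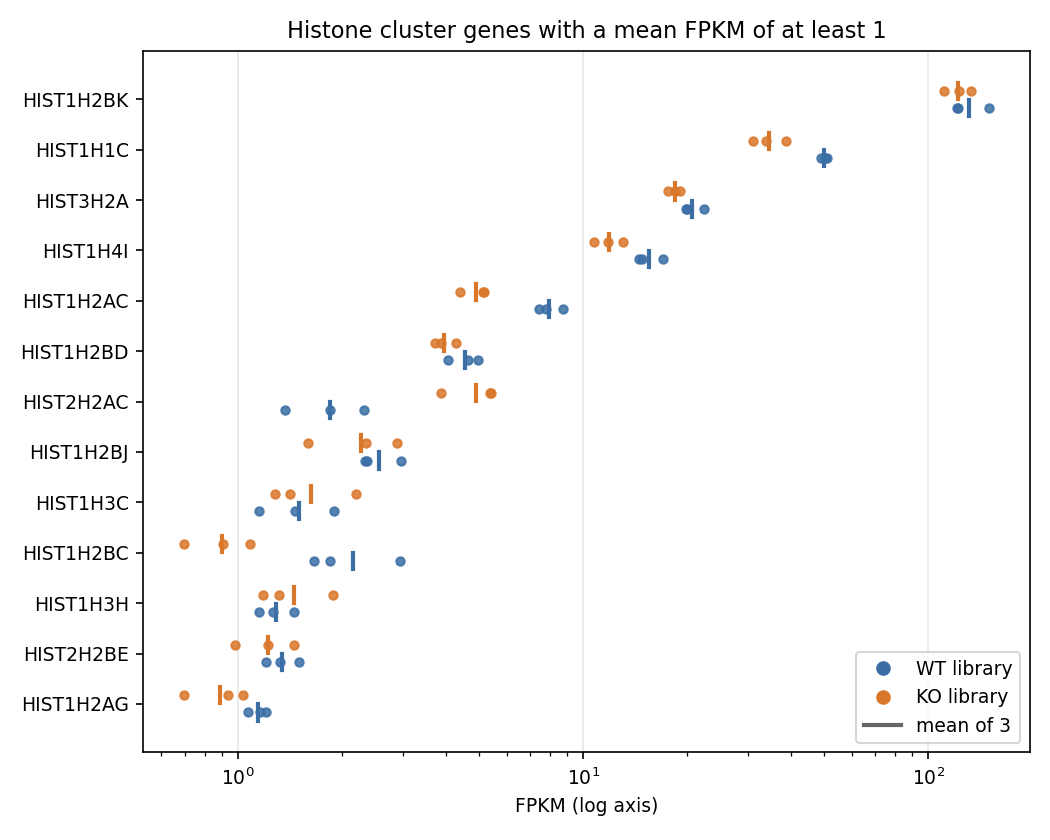
FPKM of the 13 tested histone genes on a log axis; points are libraries, coloured by genotype, and the short vertical bars are means of 3 libraries. HIST2H2AC has all KO points (3.88 to 5.41 FPKM) above all WT points (1.36 to 2.31 FPKM), and HIST1H1C, HIST1H2AC, HIST1H2BC and HIST1H4I have all KO points below all WT points.

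**Figure D3:**
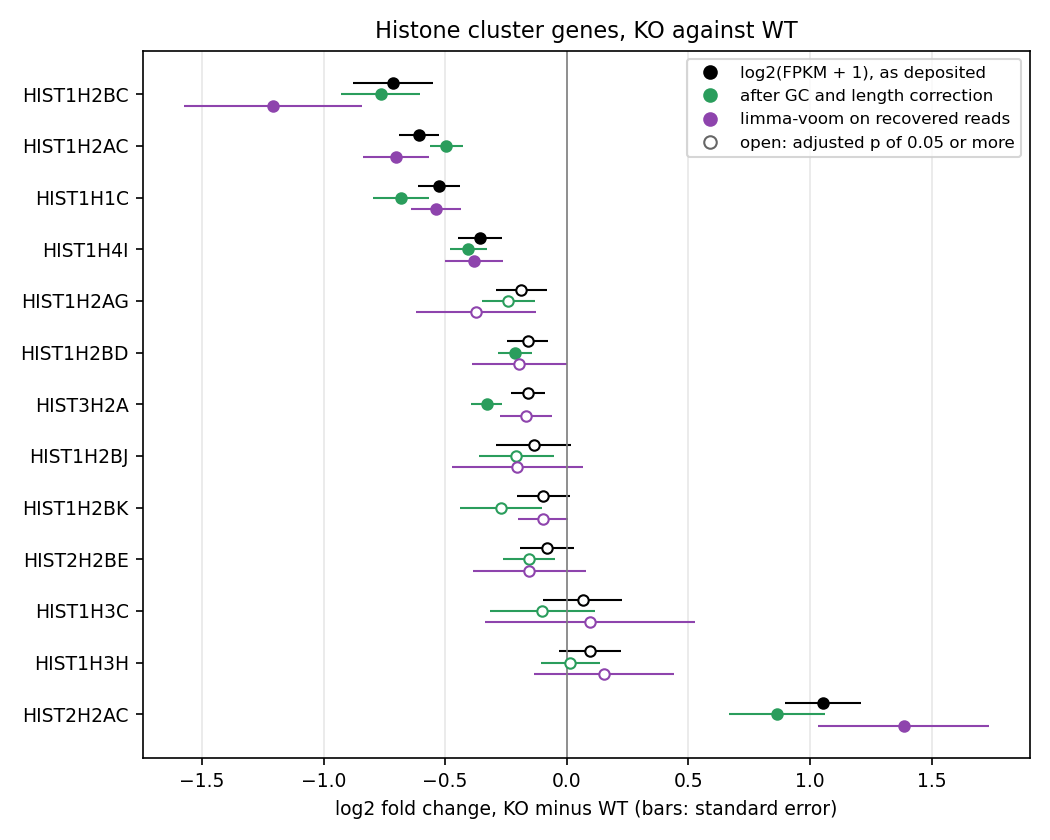
Log2 fold change (KO minus WT) of the 13 tested histone genes with its standard error, from log2(FPKM + 1) as deposited (black), after the GC and length correction (green) and from limma-voom on recovered reads (purple); open points have an adjusted p of 0.05 or more. The black points run from −0.72 for HIST1H2BC to 1.05 for HIST2H2AC, and the 5 genes called in the FPKM fit have filled points in all 3 fits.

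Among the cluster genes of linker histones, nearly all FPKM came from HIST1H1C, which encodes H1.2 (ENSG00000187837, chr6:26055787-26056428, minus strand, a model of coding sequence only). HIST1H1C measured 48.8, 50.9 and 50.1 FPKM in WT and 33.9, 31.0 and 38.7 FPKM in KO. Every KO library lay below every WT library, and the WT values varied little. The WT mean was 49.9 ± 1.07 FPKM (SD, n = 3) and the KO mean 34.5 ± 3.93 FPKM, a ratio of 0.691. The change was −0.53 (SE 0.09, limma adjusted p = 0.00285) and stayed between −0.68 and −0.45 in every alternative tried. HIST1H1C supplied 98.3% of the FPKM summed over the 6 H1 members. HIST1H1E (H1.4), the only other H1 member with reads, had 27 in WT and 27 in KO. How far messages without a tail were captured was not tested. These shares therefore describe the RNA measured and not which H1 genes were expressed.

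Among the 17 H2A genes, changes went in both directions. HIST1H2AC (ENSG00000180573, chr6:26124145-26139116, plus strand, 2 exons), an H2A gene whose protein no other member shares, read 7.44, 8.72 and 7.79 FPKM in WT and 4.40, 5.12 and 5.16 FPKM in KO. The groups did not overlap, and the means of 7.98 ± 0.659 and 4.90 ± 0.428 FPKM (SD, n = 3 each) differed 1.63-fold. Its change was −0.61 (SE 0.08, limma adjusted p = 0.00138), between −0.70 and −0.50 over the alternatives. The GENCODE span of HIST1H2AC is 14972 bases, against 519 in RefSeq, and where in the model its reads lie is not known here.

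HIST2H2AC (ENSG00000184260, chr1:149886975-149887364, plus strand, coding sequence only), another H2A gene, moved the opposite way. It read 1.36, 2.31 and 1.85 FPKM in WT and 5.38, 3.88 and 5.41 FPKM in KO. These values rest on 9, 15 and 12 reads in WT and 36, 26 and 35 reads in KO, and the groups did not overlap. The mean rose from 1.84 ± 0.473 to 4.89 ± 0.876 FPKM (SD, n = 3 each), a ratio of 2.65. The change was 1.05 (SE 0.16, limma adjusted p = 0.0019), between 0.87 and 1.39 over the alternatives, and with a filter at a mean of 5 FPKM it was not tested. Its coding sequence is 94.1% identical to that of HIST2H2AA4, with a run of 149 identical bases, so reads could be shared by the counting. HIST2H2AA4 itself had 4 reads in WT and 0 in KO, and HIST2H2AA3 had 6 and 8. The coding sequences of HIST2H2AA4 and HIST2H2AA3 are 100% identical, so reads on either could be lost in counting. Their low numbers therefore do not show that they were not expressed.

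HIST3H2A, the highest H2A gene (chr1:228456979-228457873, minus strand), read 19.8, 19.9 and 22.4 FPKM in WT and 17.6, 18.5 and 19.1 FPKM in KO. All KO values lay below the WT values, yet the change of −0.16 (SE 0.07) had a limma adjusted p of 0.101. With the GC and length correction it was −0.33 with an adjusted p of 0.00627. HIST1H2AG (chr6:27133042-27135291, plus strand) encodes an H2A protein shared with 4 other members. It read 1.16, 1.07 and 1.20 FPKM in WT and 0.933, 1.03 and 0.696 FPKM in KO, without overlap, and its change of −0.19 (SE 0.10) was not called (limma adjusted p = 0.192).

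The 18 H2B genes included the most expressed member, HIST1H2BK (chr6:27146418-27146798, minus strand). It carried 54.1% of all FPKM summed over members. By reads its part was smaller, 4874 of 14668, because FPKM divides by model length and its model is short. It read 121, 150 and 122 FPKM in WT and 123, 111 and 133 FPKM in KO, and the groups overlapped. Its change was −0.10 (SE 0.11, limma adjusted p = 0.509) and 0.01 without WT library 2, the highest. The GENCODE model of HIST1H2BK covers 381 bases of coding sequence, while RefSeq gives the gene a span of 8566 bases (27138293 to 27146858) that includes the position of HIST1H4I on the other strand.

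HIST1H2BC (chr6:26114873-26123926, minus strand) fell; its H2B protein is shared with 4 other members. It read 1.84, 2.95 and 1.66 FPKM in WT and 0.699, 0.906 and 1.08 FPKM in KO, from 26, 41 and 23 reads and 10, 13 and 15 reads. The means of 2.15 ± 0.701 and 0.896 ± 0.192 FPKM (SD, n = 3 each) differed 2.40-fold with no overlap. The change was −0.72 (SE 0.17, limma adjusted p = 0.0116), −1.21 with limma-voom on recovered reads and −1.15 with a pseudocount of 0.1. It stayed called in every alternative that tested it.

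The 3 remaining tested H2B genes were not called. HIST1H2BD (chr6:26158146-26171349, plus strand) read 4.07, 4.97 and 4.62 FPKM in WT and 3.88, 4.27 and 3.73 FPKM in KO, with overlap (change −0.16, limma adjusted p = 0.160). With the GC and length correction it was called lower (−0.21, adjusted p = 0.0464). HIST1H2BJ (chr6:27125897-27132750, minus strand) read 2.36, 2.34 and 2.97 FPKM in WT and 2.88, 1.59 and 2.35 FPKM in KO, so the groups overlapped widely. HIST2H2BE (chr1:149884459-149886652, minus strand) read 1.32, 1.51 and 1.21 FPKM in WT and 1.22, 0.98 and 1.45 FPKM in KO, again with overlap. Their changes were −0.14 (SE 0.16) and −0.08 (SE 0.11), with limma adjusted p values of 0.518 and 0.586.

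Of the 15 H3 genes, the tested pair encode a protein that each shares with 9 other members. HIST1H3C (chr6:26045411-26045821, plus strand) read 1.15, 1.90 and 1.46 FPKM in WT and 1.28, 1.41 and 2.20 FPKM in KO, from 31 and 34 reads in all. HIST1H3H (chr6:27810064-27811300, plus strand) read 1.15, 1.46 and 1.26 FPKM in WT and 1.18, 1.88 and 1.31 FPKM in KO. The groups overlapped for both, and the changes of 0.06 (SE 0.16) and 0.09 (SE 0.13) had limma adjusted p values of 0.780 and 0.587. The sign of HIST1H3C turned with the GC and length correction (−0.10) and that of HIST1H3H without KO library 2 (−0.03), so neither has a direction.

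HIST1H4I (chr6:27138588-27139881, plus strand) was the only tested gene of the 15 H4 members, and 13 others encode the same protein. It read 14.8, 17.1 and 14.5 FPKM in WT and 10.7, 13.1 and 11.8 FPKM in KO. No KO library reached the lowest WT library. The means were 15.5 ± 1.40 and 11.9 ± 1.18 FPKM (SD, n = 3 each), a 1.30-fold difference, with a change of −0.36 (SE 0.09, limma adjusted p = 0.018). The limma adjusted p was 0.0513 when no expression filter was used and 0.0567 (change −0.29) without KO library 1, the lowest. The GENCODE span of HIST1H4I is 1294 bases, against 397 in RefSeq. It lies inside the RefSeq span of HIST1H2BK on the other strand, and whether reads were counted by strand is unknown here. Where in the HIST1H4I model the reads lie is not known either.

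Most members had few or no reads in these libraries. Of the 58 members under the filter, 20 had no read in any library and 38 had reads, 21 of them 10 or more in all. Together the 58 had 448 reads in WT and 347 in KO, with more in WT for 19, more in KO for 13 and equal numbers for 6. Of the 20 members with no read, 15 had models of coding sequence only. Models overlapping another gene can lose reads in counting: HIST1H3D (100% of its model) and HIST1H2AD (98.0%) lie within AL031777.3 on the same strand, and HIST2H3PS2 (99.5%) within AC239798.4. HIST1H2AK (100%) lies within HIST1H2BN on the opposite strand. These 4 members had 0 reads, which does not show that they were not expressed.

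The 6 members under the filter with the most reads were HIST1H2BN, HIST3H2BB, HIST1H4H, HIST1H1E, HIST4H4 and HIST1H2AI. HIST1H2BN, an H2B gene, had 42, 39 and 23 reads in WT and 16, 14 and 10 in KO. HIST1H4H, an H4 gene, had 11, 18 and 21 reads in WT and 6, 7 and 3 in KO. In both, each KO library had fewer reads than each WT library. The GENCODE span of HIST1H2BN is 28039 bases, against 542 in RefSeq, and that of HIST1H4H is 8030, against 409. Where in these models the reads lie is not known here. A limma-voom fit of the recovered reads, an alternative to the FPKM fit that reached 34 members, gave HIST1H2BN −1.34 (SE 0.36, adjusted p = 0.00951) and HIST1H4H −1.59 (SE 0.51, adjusted p = 0.0245). That fit called 1 member higher and 6 lower, 20.6% against 34.3% of 20463 genes. Fitted to log2(FPKM + 1) with no filter, neither was called: the limma adjusted p was 0.0655 for HIST1H2BN and 0.0559 for HIST1H4H. HIST1H2BN overlaps HIST1H2AK on the other strand over 7.18% of its exons, and whether reads were counted by strand is unknown here. The other 4 were not called by limma-voom: HIST3H2BB had 53 reads in WT and 64 in KO, HIST1H1E 27 and 27, HIST4H4 17 and 30, and HIST1H2AI 20 and 12.

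**Figure D4:**
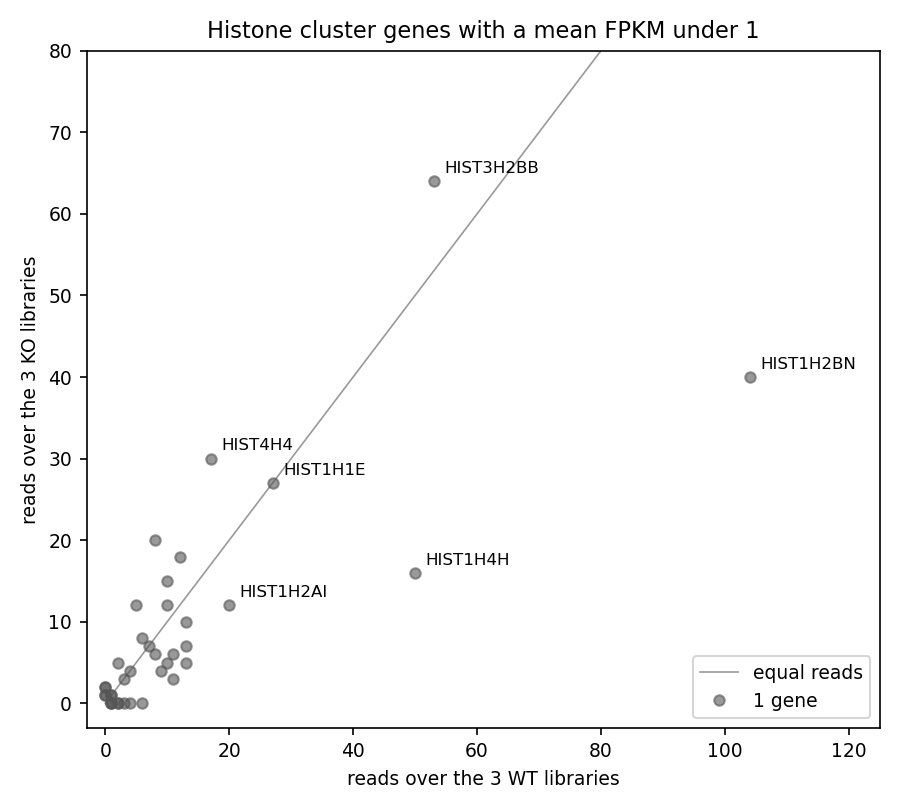
Recovered reads summed over the 3 KO libraries (vertical axis) against the 3 WT libraries (horizontal axis) for the 38 members under the filter with reads; each point is 1 gene, the line marks equal reads, and the 6 genes with the most reads are named. HIST1H2BN (104 reads in WT, 40 in KO) and HIST1H4H (50 and 16) lie farthest below the line.

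Of the 3 head-to-head pairs with both genes tested, 1 had a single partner called. HIST1H2BC and HIST1H2AC, which share the region printed above, both fell. HIST2H2AC rose while HIST2H2BE, 235 bases away start to start, was not called. In FPKM, HIST2H2AC over HIST2H2BE came to 1.03, 1.53 and 1.53 across the WT libraries and 4.40, 3.95 and 3.72 across the KO libraries. The higher KO ratios restate the rise of HIST2H2AC beside overlapping values of HIST2H2BE and are not a separate result. Neither HIST1H2BJ nor HIST1H2AG was called. HIST3H2A had 930 reads in WT and 840 in KO while HIST3H2BB, 229 bases away, had 53 and 64. HIST1H2BK had 2505 and 2369 reads while HIST1H2AH, 247 bases away, had 7 and 7.

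Summed over members, FPKM was lower in KO, with no test made on sums. A read on a short model adds more to these sums than a read on a long one. All 71 members summed to 251 ± 22.1 FPKM in WT and 217 ± 15.8 FPKM in KO (SD, n = 3 each), a ratio of 0.864, and 0.789 without HIST1H2BK. The lowest WT sum was 235 FPKM and the highest KO sum 234 FPKM, so the groups lay next to each other. By family, H1 had a ratio of 0.696 and H4 of 0.725, without overlap, each led by 1 gene (HIST1H1C, and HIST1H4I with 88.1%). H2A (0.914), H2B (0.920) and H3 (1.19) overlapped. The log2 ratio of H2B, −0.12, was −0.01 without WT library 2 and −0.06 without KO library 2. That of H3, 0.25, was 0.11 without WT library 1, 0.42 without KO library 1 and 0.09 without KO library 2. The log2 ratio of all members, −0.21, was −0.14 without WT library 2. By position, the 34 members on chromosome 6 that start below 27000000 summed to 70.8 ± 4.03 FPKM in WT and 49.9 ± 4.27 FPKM in KO, a ratio of 0.706 without overlap, with 70.0% of their FPKM from HIST1H1C. The 21 members farther along chromosome 6 had a ratio of 0.910, with overlap and 85.3% from HIST1H2BK. The 12 HIST2 members on chromosome 1 had a ratio of 1.64, from 3.94 ± 0.80 to 6.45 ± 1.22 FPKM. HIST2H2AC held 64.8% of their FPKM and alone went from 1.84 to 4.89 FPKM, a larger rise than that of the sum. The other HIST2 members together were therefore not higher in KO. In bulk RNA, fewer cells in S phase and less histone RNA per cell cannot be told apart. Whether the share of histone messages captured differed between the genotypes was not tested either.

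Genes that make or process histone mRNA changed in both directions. The 4 gene lists that follow were chosen with earlier results of these data known. Of 17 tested, 3 rose and 4 fell (41.2%, near the 43.4% of all genes tested), with a median of −0.07. SLBP, the stem-loop binding protein, went from 63.4 ± 4.85 to 58.4 ± 1.0 FPKM and was not called (−0.12, limma adjusted p = 0.218), but was called lower with the GC and length correction (−0.21, adjusted p = 0.0307). NPAT, the coactivator of histone gene transcription at histone locus bodies, fell from 3.90 ± 0.189 to 2.42 ± 0.256 FPKM (−0.52, limma adjusted p = 0.00218), but its change was −0.21 with the GC and length correction, and with the replicate block added the call was lost (adjusted p = 0.0551). CASP8AP2 (FLASH), which works in processing at the same bodies, fell from 2.96 ± 0.369 to 1.49 ± 0.262 FPKM (−0.67, limma adjusted p = 0.00304; −0.35 with that correction). MIF4GD, an SLBP partner in translation, rose from 4.68 ± 0.447 to 8.95 ± 0.562 FPKM (0.81, limma adjusted p = 0.000378). SYMPK, a scaffold of the cleavage complex, and HINFP, a transcription factor of H4 genes, rose by 0.36 and 0.35 (limma adjusted p = 0.0102 and 0.0127). ERI1, an exonuclease that acts on the stem-loop, fell by 0.34 (limma adjusted p = 0.0153), but with the GC and length correction its adjusted p was 0.118. CPSF2, named to complete the count after its values were seen, fell from 8.49 ± 0.831 to 6.95 ± 0.522 FPKM (limma adjusted p = 0.049). The number that fell was 2 with the replicate number as a block, with a filter at 5 FPKM, without WT library 1 or without KO library 1.

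Histone genes without cluster symbols, most of them replication-independent with polyadenylated messages, also moved in both directions. Of 11 tested, 4 rose and 5 fell (81.8%, against 43.4% of all genes tested, 21% higher and 22.4% lower), with a median of 0.18. H1F0, the H1.0 linker histone common in differentiated cells, rose from 49.5 ± 8.89 to 76.8 ± 10.0 FPKM (0.63, limma adjusted p = 0.0115). Divided by HIST1H1C in the same library, H1F0 came to 1.02, 0.79 and 1.16 across the WT libraries and 2.59, 2.39 and 1.76 across the KO libraries. Because H1F0 rose and HIST1H1C fell, each without overlap, these ratios could not overlap and are not a separate result. Whether the kit captured the messages of both genes equally was not tested. H1FX, another linker histone, named after its values were seen, rose from 81.3 ± 8.82 to 107 ± 10.1 FPKM (0.40, limma adjusted p = 0.017). H2AFJ rose from 3.55 ± 0.521 to 7.0 ± 0.474 FPKM (0.82, limma adjusted p = 0.000809), and H2AFY, which encodes macroH2A1, rose by 0.30 (limma adjusted p = 0.00449).

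H2AFX, the H2A.X histone phosphorylated at DNA breaks, gives a replication-linked stem-loop message as well as a polyadenylated one, and the table does not separate them. It fell from 219.8 ± 11.3 to 153 ± 16.2 FPKM (−0.52, limma adjusted p = 0.00345). H2AFZ, which encodes H2A.Z, fell from 267 ± 12.0 to 213 ± 22.4 FPKM (−0.33, limma adjusted p = 0.0237), and that call was lost with the replicate block and without any one of WT library 1, WT library 2 or KO library 2 (adjusted p 0.0594 to 0.0757) and with no filter (0.0828). H3F3B and H3F3A both encode H3.3. H3F3B fell from 98.0 ± 0.530 to 78.5 ± 4.72 FPKM (−0.32, limma adjusted p = 0.00642), while H3F3A went from 52.3 ± 4.75 to 62.6 ± 4.99 FPKM and missed the threshold (0.26, limma adjusted p = 0.0544; 0.43 and 0.000833 with the GC and length correction). CENPA, the centromeric H3, fell by 0.31 (limma adjusted p = 0.00658). H2AFY2, which encodes macroH2A2, fell from 1.65 ± 0.308 to 0.762 ± 0.257 FPKM (−0.59, limma adjusted p = 0.0123).

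**Figure D5:**
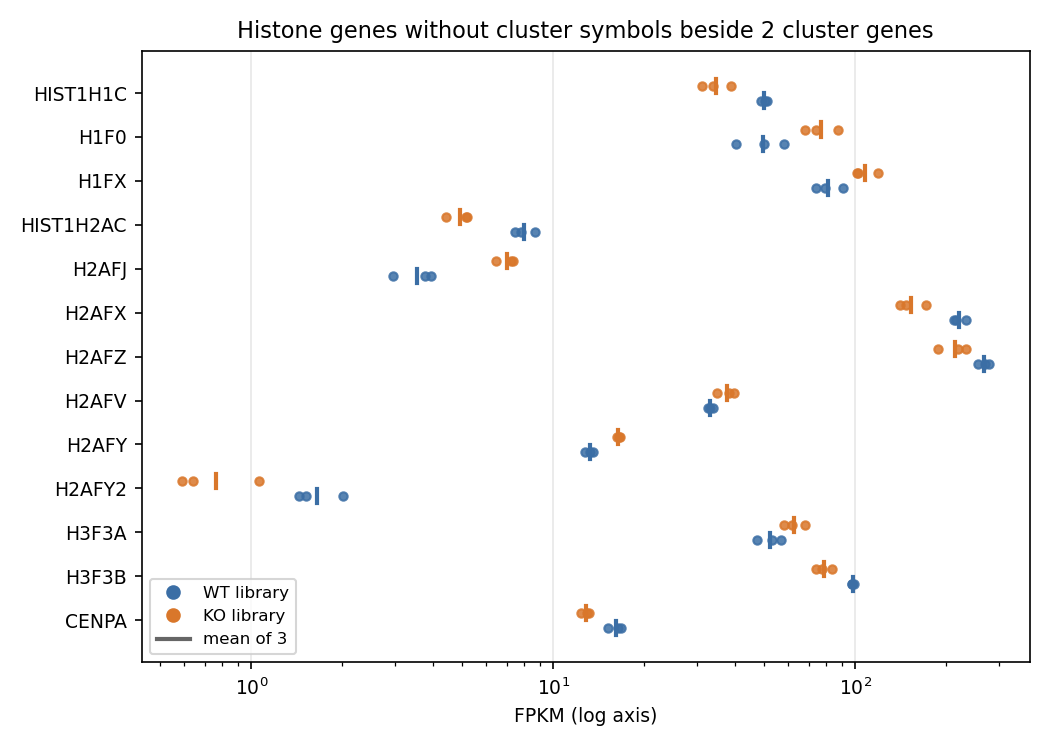
FPKM of the 11 histone genes without cluster symbols beside HIST1H1C and HIST1H2AC on a log axis; points are libraries, coloured by genotype, and the short vertical bars are means of 3 libraries. H1F0 and H2AFJ have all KO points above their WT points, while HIST1H1C, HIST1H2AC, H2AFX and H3F3B have all KO points below.

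Of 21 tested histone chaperones and assembly factors, 3 rose and 4 fell (33.3%, against 43.4% of all genes tested), with a median of 0.07. ASF1A and ASF1B, paralogous H3-H4 chaperones, went opposite ways: ASF1A fell from 12.3 ± 0.701 to 6.84 ± 0.428 FPKM (−0.76, limma adjusted p = 0.000275) and ASF1B rose from 29.3 ± 0.941 to 37.9 ± 0.519 FPKM (0.36, limma adjusted p = 0.00208). With the GC and length correction the changes were −0.44 and 0.17, and with the replicate block added the ASF1B call was lost (adjusted p = 0.082). ANP32E, which removes H2A.Z from chromatin, fell from 27.3 ± 1.30 to 17.9 ± 1.93 FPKM (−0.59, limma adjusted p = 0.00187; −0.29 with that correction). HAT1, which acetylates new H4, fell from 11.5 ± 1.87 to 7.36 ± 0.926 FPKM (−0.58, limma adjusted p = 0.00879). SUPT6H, CABIN1 (both higher) and ATRX (lower) complete the called genes and were named after their values were seen. NASP, a chaperone of the H3-H4 reserve, went from 16.4 ± 0.222 to 18.9 ± 1.46 FPKM and missed the threshold (limma adjusted p = 0.053; 0.0262 with the GC and length correction). The number that rose was 7 with the GC and length correction, and 1 with the replicate block.

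Of 22 genes of S phase entry and DNA replication, 1 rose and 9 fell, with a median of −0.13. The share called in either direction, 45.5%, was near the 43.4% of all genes tested. The split by direction was not: all genes divided almost evenly, 21% higher and 22.4% lower, while the calls in this list were mostly lower. CCNE2, a cyclin that drives entry into S phase, fell from 2.27 ± 0.201 to 1.26 ± 0.0117 FPKM (−0.53, limma adjusted p = 0.00229; −0.23 with the GC and length correction, with the call lost when the replicate block was added, adjusted p = 0.102). CDC25A, the phosphatase that activates its kinase, fell by 0.55 (limma adjusted p = 0.00102). CCNA2, the S and G2 phase cyclin, fell from 69.8 ± 7.58 to 47.3 ± 5.37 FPKM (limma adjusted p = 0.00605), and RRM2, a ribonucleotide reductase subunit, fell from 27.5 ± 4.05 to 15.7 ± 3.52 FPKM (limma adjusted p = 0.00913). PCNA, the sliding clamp of DNA polymerase, rose from 162 ± 12.7 to 216 ± 12.5 FPKM (0.42, limma adjusted p = 0.00588). The number that fell was 5 without KO library 2. With the GC and length correction it was 13 of the 22, where 22.9% of all genes were called lower and 20.7% higher. The number that rose was 2 without KO library 1 or KO library 3. The values of these genes stand beside those of the histone genes, and their part in the histone changes was not tested.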

How the data were processed

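RNA of 6 HT1080 libraries, 3 WT and 3 KO, was purified on RNeasy columns, and libraries came from a SMARTER mRNA-Seq kit, per the labels' protocols. The authors deposited 1 table of FPKM values with gene length, position and biotype. No aligner, counter or strandedness of the counting is given in the sources used here. Mouse builds (GRCm38, mm10) stand in the submitters' processing notes, yet 58735 of 58735 genes have the starts and ends of human GENCODE 29 on GRCh38, which is used here. FPKM times length stepped in whole reads for 100% of values (within 0.02 of a whole read), with 1 read in 1 kb worth 0.0581 to 0.0602 FPKM. That number of reads limits precision for low members. The scale did not follow the recovered reads alone. In 1 kb, 1 read was worth 0.0602 FPKM in KO library 3 (16955111 reads) and 0.0591 FPKM in WT library 1 (16434344 reads). What else entered the scale is not given in the sources used here.

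Genes with a mean of at least 1 FPKM were tested on log2(FPKM + 1) with limma 3.58.1 in R 4.3.3 (lmFit, eBayes with trend, two-sided), adjusted by Benjamini-Hochberg over all tested genes at 0.05. Sequence searches used Python 3.11.15 and Biopython 1.88. The alternatives were pseudocount 0.1, no filter or 5 FPKM, limma-voom on recovered reads, quantile normalization, a GC and length correction, a replicate block and leaving out each library. The histone clusters and the gene lists were picked for study with earlier results of these data known; membership of the clusters follows from symbol and biotype. Named genes are ADGRG1, all tested members, the 6 members under the filter with most reads, set list genes (SLBP, NPAT, CASP8AP2, H2AFZ, H2AFX, H3F3A, H3F3B, H1F0, CCNE2 and NASP) and up to 4 further called genes a list. In the mRNA processing list 17 of 18 symbols were in the table, and the chaperone IPO4 was under the filter.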

Additional observations from a re-analysis of the deposited data

How the results depend on the processing

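Of the values computed for the named genes under the alternatives, 510 kept their direction and side of the threshold, 15 lost it, 12 gained it and 7 reversed. The reversed values belong to members that were not called: HIST1H3C (−0.10 with the GC and length correction, with or without the replicate block) and, without 1 library at a time, HIST1H2BK (−0.161 to 0.0056, above 0 without WT library 2), HIST1H2BJ (−0.269 to 0.023, above 0 without KO library 2), HIST1H3H (−0.0257 to 0.176, below 0 without KO library 2) and HIST1H3C (−0.0844 to 0.176, below 0 without WT library 1 or KO library 3). With no filter HIST1H4I lost its call and HIST2H2AB (6 reads in WT, 0 in KO) gained one, a gene named after its values were seen. With a filter at a mean of 5 FPKM fewer genes were tested, 1639 were called higher and 1564 lower in place of 2525 and 2682, 0 members were called higher since HIST2H2AC was not tested, and 2 mRNA processing genes fell. Chaperones called higher numbered 7 with the GC and length correction and 1 with the replicate block. Without 1 library at a time, all-gene counts ran from 1852 to 2689 higher and from 1911 to 2691 lower; 1 member was higher each time and 3 to 4 lower, chaperones higher ran from 1 to 4, mRNA processing genes lower from 2 to 5, and S phase genes from 1 to 2 higher and from 5 to 8 lower. The cause was not tested. Over gene models under 1000 bases only, the log2 ratio of summed FPKM was 0.018 for H2A (main −0.13) and −1.34 for H4 (main −0.46). That of H2A leaves out HIST1H2AC, which was called lower, and HIST1H2AG. That of H4 leaves out HIST1H4I and so rests only on members under the filter, with few reads.

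The labels number the libraries 1 to 3 in each genotype. Same-numbered libraries did not deviate together (correlations −0.07, −0.18 and −0.35), and no WT library correlated best with the KO library of its number. The labels do not say what the shared number stands for. With that number as a replicate block, 1900 genes were called higher and 1966 lower, and the members stayed at 1 and 4; with the block and the GC and length correction the counts were 1997 and 2195, and 1 and 5 for members. mRNA processing genes that fell numbered 2 with the block. Depth limits the 58 members under the filter, since 3 reads in 1 kb are 0.174 to 0.180 FPKM.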

Other observations

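A further 19 entries carry cluster-type histone symbols but are not annotated as protein-coding, and 7 of them had reads. HIST2H2BC, a transcribed pseudogene of the chromosome 1 group, had 154 reads in WT and 209 in KO, and the WT libraries read 0.450, 0.485 and 0.495 FPKM and the KO libraries 0.670, 0.605 and 0.636 FPKM, without overlap. HIST2H2BD, another transcribed pseudogene, had 110 and 105 reads with overlapping values. HIST2H2BB had 14 reads in WT and 2 in KO, and 1 of the WT libraries had the same level as the KO libraries with reads, about 0.10 FPKM. Each was under the expression filter. In limma-voom on recovered reads the adjusted p was 0.115 for HIST2H2BC (log2 change 0.41), 0.869 for HIST2H2BD and 0.141 for HIST2H2BB, and with no filter limma gave 0.283, 0.899 and 0.169, so none was called.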
